A study of Bos taurus with 92 samples.

Results

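The comparison described here sets 15 bovine embryos labelled IVF (fertilised in vitro) against the 2 samples labelled donor cells, which are the only samples of the series that are not embryos. Together they make up 17 of its 46 samples. The members were assigned by their sample labels and not by a measured value of each sample. Both this comparison and the gene lists used below were, however, chosen with earlier results of these data known. The series profiled single bovine blastocysts on a custom 2-colour cDNA microarray, and by its title it examined nuclear reprogramming in embryos made by nuclear transfer (NT), artificial insemination (AI) and IVF. Each sample was hybridised against 1 common reference RNA on 2 arrays with the dyes exchanged. The 14 AI embryos, conceived after artificial insemination, serve here as the second comparison, because the differences of IVF embryos from the cells that were not found in AI embryos are given the most room. The 15 NT embryos entered the model only through its shared estimate of the spread. Each IVF sample was 1 embryo, numbered from 1 to 19 with gaps, and 3 of the AI embryos have an H before their number, which the labels do not explain. The labels call the cells donor cells for NT, numbered 8 and 9, and do not name their tissue, their cell type or whether they were separate cultures. Breed, embryo age and culture medium are not given in the sources used here. All groups shared the same RNA treatment, in which embryo and donor cell RNA was amplified linearly through more rounds than the reference RNA.

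A blastocyst is a hollow embryo with an outer epithelium, the trophectoderm, around an inner cell mass. The trophectoderm seals its cells with tight junctions, pumps ions and water inward to fill the cavity, holds keratin filaments and in ruminants secretes trophoblast proteins such as the pregnancy-associated glycoproteins. Fibroblasts, the cells often used as nuclear donors, lie in connective tissue, hold vimentin filaments and secrete collagen and other matrix proteins.

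A level below is the log2 ratio of sample over reference RNA for a gene, with the median of each array set to 0, and a difference is between 2 group means of such levels with its standard error (SE). A difference of 1 is 2-fold. A gene is called when the adjusted p of limma's moderated test, 2-sided and corrected by the Benjamini-Hochberg method over 4398 genes, is under 0.05. The ratio was read as Cy5 over Cy3. Correlations between arrays cannot decide that direction, because they stay the same when the sign of every array is turned. It was inferred from fibroblast and trophectoderm marker genes, with the donor cells taken as fibroblasts, which the labels do not say. This reading is likely rather than certain, and under the opposite reading every direction below would turn. That these markers went the way of their labels is therefore set by that choice and does not check the labels. Arrays of the same dye orientation never correlated clearly below 0 (lowest r of -0.02 with the sample in Cy5 and 0.09 with it in Cy3). No intensities were used here, so that weak spots could not be set apart. Amounts in a whole embryo are averages over its cells, and fewer cells of a type cannot be told apart from less RNA per cell. No labels give an array batch or date, so that batch and group cannot be told apart. The p-values and standard errors rest on a spread estimated over all 46 samples together, mostly between embryos, to which the 2 donor cell samples add little. The labels do not say that samples 8 and 9 came from separate cultures, so that the spread between these 2 may be technical.

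The arrays of 1 sample with exchanged dyes correlated with r of 0.57 to 0.74 in IVF embryos but 0.30 to 0.35 in donor cells. The donor cell samples correlated with each other at 0.73, and 11.1% of genes differed by more than 1 between them. IVF embryos correlated with one another at 0.62 to 0.88 (median 0.80 over 105 pairs) and with the donor cells at 0.11 to 0.19. Missing values averaged 4.17% in IVF, 5.37% in AI and 1.51% in donor cell samples. Of 12 fibroblast markers 8 were tested, of which 6 were lower in IVF embryos, none was higher, and THY1 and TIMP1 were not called. COL1A1, LUM, LOX and FBN1 were not analysed here. Of 14 trophectoderm markers 11 were tested, of which 8 were higher in IVF embryos and 1, TFAP2A, was lower, against the other trophectoderm markers, while GATA3 and CDH1 were not called. The samples labelled donor cells are called that below.

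Against the donor cells, 1508 of the 4398 genes were called in IVF embryos (34.3%), with 812 higher (18.5%) and 696 lower (15.8%). At least 2-fold were 1061 of the calls, at least 4-fold 347 and at least 16-fold 53. In 605 genes (13.8%) every measured IVF embryo lay above both donor cell samples, and in 606 (13.8%) every one lay below both. The balance of higher and lower calls depended on the centring of the arrays and on the dye. Higher genes made up 53.8% of the calls with arrays centred, 39.4% (407 higher, 627 lower) as deposited, 39.3% (519 higher, 803 lower) with the sample in Cy5 alone and 65.9% (1037 higher, 537 lower) with the sample in Cy3 alone. The median difference over all genes was 0.03 centred and -0.14 as deposited, so that directions are relative to the median gene. Without donor cell sample 8 there were 983 calls and without sample 9 there were 964. The same contrast for AI embryos gave 1627 calls (37%), 898 higher (20.4%) and 729 lower (16.6%). Both contrasts use the same 2 donor cell samples, and their difference is the contrast of IVF and AI embryos, tested in the same model.

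The 12 genes furthest above the donor cells included OCLN, KRT8, KRT18, AQP3, ESRP1 and PTGS2. Occludin (OCLN), a strand protein of tight junctions, had levels of -2.11 and -2.36 in the donor cells, against 3.26 in the lowest, 3.88 in the median and 4.15 in the highest IVF embryo. Every IVF embryo lay above both cell samples, with a difference of 6.04 ± 0.22 (SE, n = 15 and 2, adjusted p = 7.93e-27), which is 65.7-fold. Keratin 8 (KRT8), which pairs with keratin 18 in simple epithelia, stood at -3.45 and -4.15 in the cells and at 0.54 to 2.05 in the embryos, with a median of 1.71. Its difference was 5.42 ± 0.29 (adjusted p = 1.62e-20), or 42.9-fold, and that of KRT18 was 5.13 ± 0.33 (adjusted p = 6.62e-18), or 34.9-fold. KRT18 levels ran from 1.40 to 2.57 in IVF embryos, with -3.10 and -2.91 in the cells. AQP3, a channel for water and glycerol, had levels of -0.88 and -0.74 in the donor cells and 3.08, 4.12 and 4.62 in the lowest, median and highest IVF embryo. It rose by 4.88 ± 0.26 (adjusted p = 4.3e-21), or 29.5-fold. ESRP1, which directs the splicing of transcripts to their epithelial forms, rose by 5.50 ± 0.25 (adjusted p = 4.59e-23). The prostaglandin-forming enzyme PTGS2 was at -0.98 and 0.33 in the cells, while the IVF embryos lay in the narrow range from 4.91 to 5.48. Its difference of 5.54 ± 0.27 (adjusted p = 1.85e-22) is 46.5-fold.

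The other genes among the 12 largest rises were HKDC1 (5.69 ± 0.58), a hexokinase relative, LOC780876 (5.21 ± 0.37), TDRP (5.15 ± 0.40), the aminopeptidase ENPEP (5.04 ± 0.31), GALNT3 (4.83 ± 0.39), which starts O-linked sugar chains on proteins, and RBM47 (4.78 ± 0.25), an RNA-binding protein. All 15 IVF embryos lay above both donor cell samples in each, by the rule that named these genes. The smallest adjusted p among these 6 was 7.87e-21, for RBM47, and the largest was 3.19e-11, for HKDC1. GALNT3 was the least even of them in the donor cells, at -3.75 and -1.65. Of the 12, IVF and AI embryos differed by the test only in AQP3, lower in IVF embryos by -0.43 ± 0.13 (adjusted p = 0.00802), and in ESRP1, higher by 0.41 ± 0.12 (adjusted p = 0.0103).

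**Figure D1:**
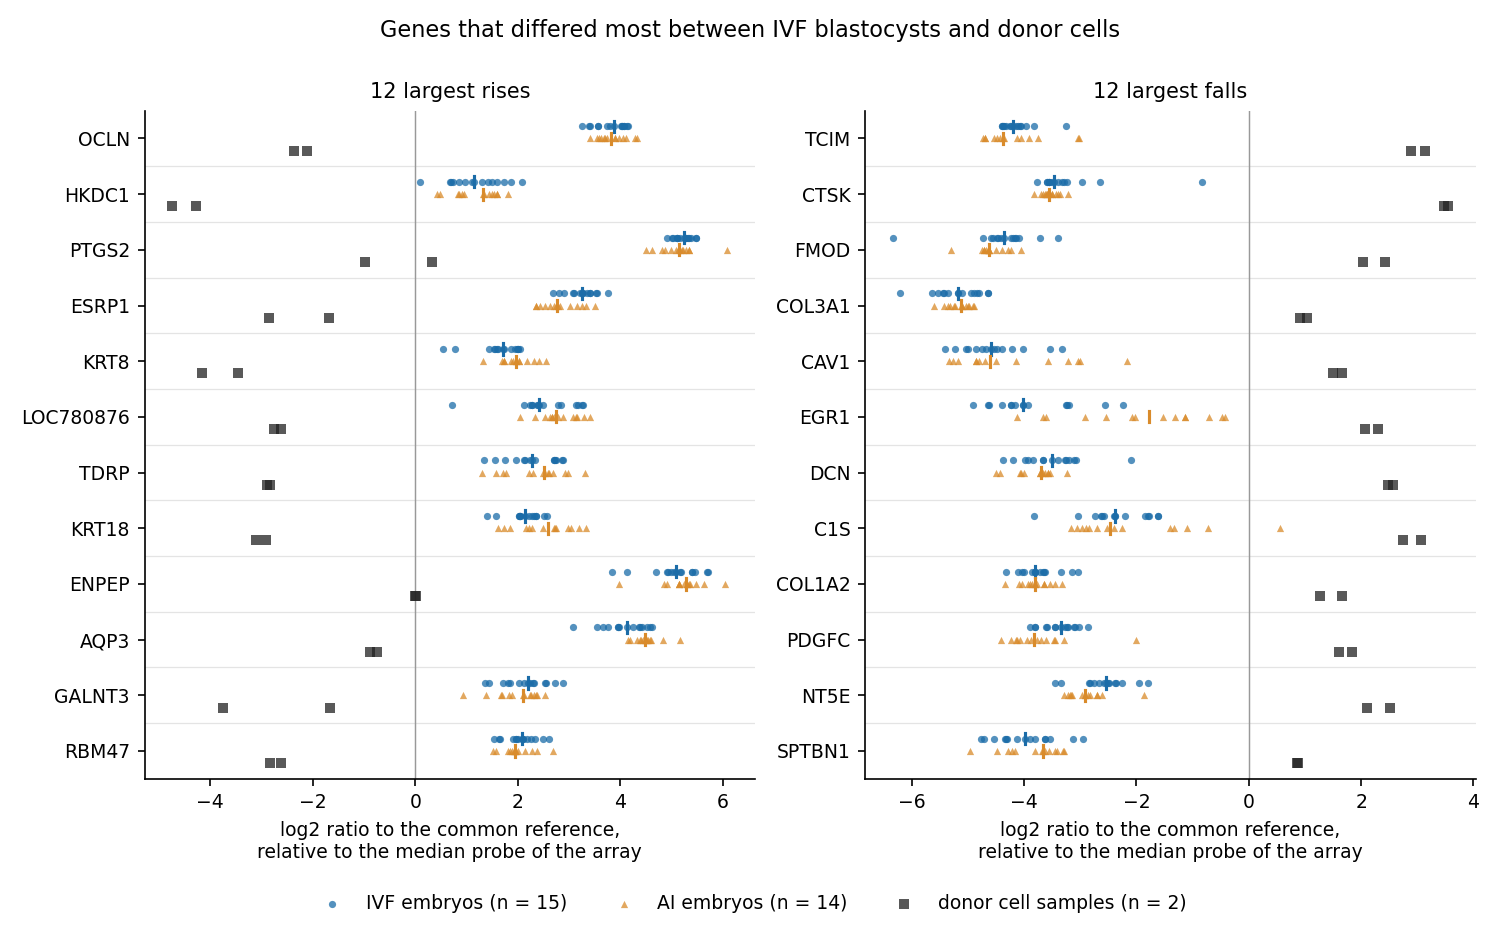
Levels (log2 ratio of sample over reference, arrays centred) of the genes with the largest differences between IVF embryos and donor cells, 1 point per sample (IVF circles, AI triangles, donor cells squares) with ticks at the embryo medians. OCLN runs from 3.26 to 4.15 in the 15 IVF embryos and is at -2.11 and -2.36 in the donor cells, while COL3A1 runs from -6.20 to -4.65 against 0.92 and 1.03.

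The 12 genes furthest below the donor cells included the matrix genes COL3A1, FMOD, DCN and COL1A2. Collagen III (COL3A1), a fibre-forming collagen, had levels of 0.92 and 1.03 in the donor cells and of -6.20, -5.17 and -4.65 in the lowest, median and highest IVF embryo. The difference was -6.16 ± 0.24 (adjusted p = 7.36e-26), which is 71.4-fold more in the cells. Fibromodulin (FMOD), which binds collagen fibrils, was at 2.42 and 2.03 in the cells and between -6.33 and -3.39 in the embryos. It fell by 6.61 on the log2 scale (SE 0.35, adjusted p = 6.01e-21), and decorin (DCN), a related small proteoglycan, differed by -6.03 ± 0.30 (adjusted p = 1.04e-21). The collagen I chain COL1A2 differed by -5.19 ± 0.23 (adjusted p = 6.95e-24), with levels of 1.26 and 1.66 in the cells and -4.32 to -3.05 in the embryos. TCIM led the falls named here, with 3.13 and 2.89 in the cells and -4.39 to -3.25 in the embryos. Its difference of -7.14 ± 0.59 (adjusted p = 4.35e-14) is 141-fold.

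Cathepsin K (CTSK), a lysosomal protease that degrades collagen, stood at 3.48 and 3.55 in the donor cells and differed by -6.73 ± 0.43 (adjusted p = 5.01e-18). Its 15 embryo values were uneven, because IVF embryo 11 had -0.83 and the next highest embryo -2.64, while the median was -3.46. Caveolin 1 (CAV1), which shapes pits in the plasma membrane, differed by -6.11 ± 0.49 (adjusted p = 1.6e-14) and the immediate early transcription factor EGR1 by -6.03 ± 0.69 (adjusted p = 6.28e-10). EGR1 levels were 2.30 and 2.08 in the cells, -4.90 to -2.24 in IVF embryos and -4.12 to -0.42 in AI embryos. It was the only gene of the 12 largest falls called between the kinds of embryo, lower in IVF by -1.87 ± 0.34 (adjusted p = 3.36e-05). The remaining falls among the 12 were the complement protease C1S (-5.28 ± 0.67), the growth factor PDGFC (-5.10 ± 0.44), the surface nucleotidase NT5E (-4.89 ± 0.39) and the membrane skeleton protein SPTBN1 (-4.84 ± 0.42).

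Of 28 fibroblast and matrix genes tested, 18 were lower in IVF embryos and 1 was higher, and the median difference was -1.93. Over all genes tested, 15.8% were lower and 18.5% higher, with a median of 0.03. In AI embryos 16 were lower and 2 higher, with a median of -2.05. The intermediate filament gene VIM had narrow ranges, at -0.12 and 0.06 in the donor cells and -4.91 to -4.12 in the IVF embryos. It differed by -4.42 ± 0.18 (adjusted p = 4.33e-25), or 21.5-fold. CCN2, a secreted matrix-associated growth regulator, was at 1.71 and 1.86 in the cells and -1.49 to 0.57 in IVF embryos, a difference of -2.03 ± 0.27 (adjusted p = 4.94e-08). AI embryos were further down, so that IVF embryos exceeded them by 0.76 ± 0.14 (adjusted p = 2.48e-05). FBLN2, an elastic fibre protein chosen after its value was seen, was the 1 higher gene of the list, by 2.22. The mean over the list ran from -1.67 to -1.30 in IVF embryos, against 0.71 and 0.78 in the donor cells, with no overlap. SPARC, a calcium-binding matrix protein made by fibroblasts and by primitive endoderm, differed by -4.33 ± 0.41 (adjusted p = 3.17e-12), and the laminin chain LAMC1 by -1.46 ± 0.27 (adjusted p = 1.87e-05). LAMB1, its partner chain, was lower than in the cells by -1.05 ± 0.34 (adjusted p = 0.0118) in IVF embryos and by -2.15 ± 0.34 (adjusted p = 1.01e-06) in AI embryos. Of 12 primitive endoderm genes 4 were lower (2 without donor cell sample 9 or with Cy3 alone) and 1 was higher in IVF embryos.

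Among 19 keratin and junction genes, 13 were higher in IVF embryos and 1 was lower, with a median difference of 1.92. Over all genes 18.5% were higher and 15.8% lower. Claudin 6 (CLDN6), a tight junction protein of early embryonic epithelium, was at 0.40 and 0.39 in the cells and at 3.35, 4.05 and 4.66 in the lowest, median and highest IVF embryo. It rose by 3.60 ± 0.21 (adjusted p = 3.85e-19). The epithelial adhesion molecule EPCAM rose by 4.46 ± 0.27 (adjusted p = 6.93e-19) and KRT19 by 3.11 ± 0.31 (adjusted p = 2.08e-11). Periplakin (PPL), a linker of filaments to desmosomes, was the lower gene, by -0.87 ± 0.25 (adjusted p = 0.00589). Of 8 genes for pumps and channels, AQP3, the sodium pump subunit ATP1B3 (1.88 ± 0.25, adjusted p = 3.71e-08) and the epithelial sodium channel subunit SCNN1A (1.67 ± 0.31, adjusted p = 1.83e-05) rose, and 2 fell. SCNN1G, another subunit of that sodium channel, fell from 0.74 and 1.18 in the cells to between -1.22 and 0.39 in the embryos (difference -1.46 ± 0.30, adjusted p = 9.31e-05).

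Genes for proteins that the ruminant trophoblast secretes were higher in IVF embryos in 8 of 11 cases and lower in none by limma's test (0 at an unadjusted p under 0.05), with a median difference of 1.62. Over all genes 18.5% were higher and 15.8% lower. PAG12, a pregnancy-associated glycoprotein, had -0.47 and -0.65 in the donor cells and a median of 2.26 in IVF embryos. IVF embryo 7 lay below both cell samples at -1.43, and the other 14 lay between 1.38 and 3.39. The difference was 2.63 ± 0.65 (adjusted p = 0.00124). PAG11 rose by 1.75 ± 0.40 (adjusted p = 0.000472), PAG10 by 1.62 ± 0.50 (adjusted p = 0.00867) and SSLP1 by 2.71 ± 0.73 (adjusted p = 0.00295). The glycoprotein genes are closely related copies, and whether the probes separate them was not tested. The count was the least steady of the identity lists, at 4 as deposited, 4 with the sample in Cy3 alone, 2 without donor cell sample 8 and 3 without sample 9.

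The 16 lineage transcription factors had a median difference of 0.04 that turned to -0.13 as deposited, with 3 higher and 3 lower. These counts are near the shares over all genes (18.5% higher and 15.8% lower), and 5 were higher after quantile normalisation. TFAP2C, a trophectoderm factor, had levels of 0.98 and 0.91 in the cells and 2.14 to 3.63 in the IVF embryos, a rise of 2.02 ± 0.32 (adjusted p = 1.02e-06). GATA2, a factor of the trophoblast and of blood, rose by 1.15 ± 0.21 (adjusted p = 2.47e-05). TFAP2A, a relative of TFAP2C, went the other way. It stood at 2.20 and 1.54 in the donor cells and at -1.23 to 0.52 in the IVF embryos, all below both cell samples, with a difference of -1.96 ± 0.46 (adjusted p = 0.000615) that was not called without donor cell sample 8. KLF4, a pluripotency factor also found in somatic cells, fell by 1.69 on the log2 scale (SE 0.37, adjusted p = 0.000265), from 3.29 and 3.01 in the cells to 0.60 to 2.55 in the embryos.

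Cell cycle and DNA replication genes stood higher in IVF embryos in 14 of 21 cases and lower in 2, with a median difference of 1.14. Over all genes 18.5% were higher and 15.8% lower. CDC20, an activator of the anaphase-promoting complex, was at -2.61 and -2.37 in the cells and at 0.84 to 2.13 in the embryos. The difference of 4.14 ± 0.31 (adjusted p = 2.97e-15) is 17.6-fold. MCM4, part of the replicative helicase, rose by 3.77 ± 0.28 (adjusted p = 9.25e-16), or 13.7-fold, and all 3 helicase subunits tested were higher. Cyclin E1 (CCNE1), which drives entry into DNA synthesis, rose by 3.44 ± 0.41 (adjusted p = 1.91e-09), and the spindle protein TPX2 by 3.08 ± 0.35 (adjusted p = 5.81e-10). Without donor cell sample 9 the list held 9 higher genes.

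Glucose transporters led the 18 glycolysis and glucose genes, of which 10 were higher and 2 lower, with a median of 0.78. Over all genes 18.5% were higher and 15.8% lower. SLC2A1 had levels of -2.46 and -2.67 in the donor cells and of -0.44, 0.59 and 1.88 in the lowest, median and highest IVF embryo, a rise of 3.17 ± 0.35 (adjusted p = 2.45e-10), or 9.01-fold. SLC2A3 rose by 3.22 ± 0.29 (adjusted p = 5.12e-13), PDHB, a subunit of pyruvate dehydrogenase, by 1.85 ± 0.22 (adjusted p = 2.44e-09) and the aldolase ALDOC by 1.61 ± 0.26 (adjusted p = 2.06e-06). The list had 5 higher genes in the uncentred arrays and again 5 in the Cy5 orientation.

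The heat shock and folding list had 13 of 36 genes higher and 2 lower (median 0.68), beside 18.5% and 15.8% of all genes. HSF1, the transcription factor that turns on heat shock genes, was at -1.27 and -1.34 in the cells and 1.17 to 2.01 in the IVF embryos, with a difference of 2.96 ± 0.23 (adjusted p = 3.6e-15). The chaperonin subunit CCT3 rose by 1.59 ± 0.23 (adjusted p = 1.53e-07), the constitutive chaperone HSPA8 by 1.45 ± 0.27 (adjusted p = 2.4e-05) and the mitochondrial co-chaperonin HSPE1 by 1.43 ± 0.29 (adjusted p = 7.96e-05). AI embryos held still more HSPE1, so that IVF embryos were below them by -0.97 ± 0.14 (adjusted p = 8.63e-07). Of the list, 5 genes lay below AI embryos and 8 above them by the test, beside 15.6% and 13.9% of all genes. The 5 below were 3 as deposited and 8 with Cy5 alone. Of 10 DNAJ genes in the list 5 lay above AI embryos and none below. The higher count of the list was 6 as deposited, 6 with the sample in Cy5 alone, 20 with it in Cy3 alone, 8 without donor cell sample 8 and 6 without sample 9.

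Of 56 splicing and RNA-binding genes 21 were higher and 6 lower in IVF embryos (median 0.48), and of 7 serine- and arginine-rich splicing factors 6 were higher (median 1.49), where 18.5% of all genes were higher and 15.8% lower. The 21 higher genes were 13 as deposited, the 6 lower were 2 without donor cell sample 8, 1 without sample 9 and 3 with Cy3 alone, and the 6 of the serine- and arginine-rich group were 3 without sample 8 and 3 with Cy5 alone. SRSF7 was at -1.99 and -1.54 in the cells and -0.73 to 0.81 in the embryos, a rise of 2.02 ± 0.26 (adjusted p = 1.46e-08), and SRSF2 rose by 1.97 ± 0.27 (adjusted p = 6.97e-08). The spliceosome core protein SNRPD3 rose by 1.64 ± 0.27 (adjusted p = 2.2e-06) and PTBP1, a splicing repressor, by 1.33 ± 0.23 (adjusted p = 6.8e-06). In AI embryos 29 of the list were higher and 2 lower than in the cells, beside 20.4% and 16.6% of all genes. Directly between the embryos 22 were lower and 5 higher in IVF, beside 15.6% and 13.9% of all genes. Among 11 HNRNP genes 1 was higher in IVF and 6 in AI embryos, and 5 were lower in IVF than in AI. Without sample 8 the 29 of the list in AI embryos were 18 and the 6 HNRNP genes 3.

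Chromatin regulators were called in 11 of 36 cases, 9 higher and 2 lower, no larger a share than the 34.3% over all genes, with a median of 0.16 that was -0.01 as deposited. The 9 higher genes were 4 as deposited, 4 without donor cell sample 8, 4 without sample 9 and 5 with Cy5 alone. The deacetylase HDAC1 had -0.74 and -1.34 in the cells and 0.68, 1.19 and 1.67 in the lowest, median and highest IVF embryo, a rise of 2.19 ± 0.18 (adjusted p = 2.79e-14). HMGA1, an architectural DNA-binding protein, rose by 1.84 ± 0.42 (adjusted p = 0.000475), PRMT5, an arginine methyltransferase, by 1.53 ± 0.39 (adjusted p = 0.00149) and TRIM28, a co-repressor, by 1.32 ± 0.29 (adjusted p = 0.000248). The DNA methyltransferase DNMT3A showed a difference of 1.04 ± 0.46 (adjusted p = 0.0732) that was not called. In AI embryos DNMT3A was above the cells by 2.60 ± 0.46 (adjusted p = 1.05e-05), and IVF embryos were below AI embryos by -1.56 ± 0.23 (adjusted p = 1.18e-06).

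Of 18 imprinted genes 6 were lower and 2 higher in IVF embryos (median -0.57), beside 15.8% and 18.5% of all genes. PLAGL1, a zinc finger factor, was at 1.03 and 0.66 in the donor cells and at -4.35 to -1.85 in the IVF embryos, with a difference of -4.37 ± 0.42 (adjusted p = 5.39e-12). SGCE differed by -3.45 ± 0.50 (adjusted p = 2.32e-07) although IVF embryo 11 was at -0.28, between the cell samples at 0.05 and -1.36, while the other 14 lay at or below -3.92. COPG2 differed by -2.55 ± 0.37 (adjusted p = 2.52e-07). Neither H19 (0.06 ± 0.25, adjusted p = 0.897) nor the growth factor receptor IGF2R (-0.57 ± 0.25, adjusted p = 0.0673) was called. DCN, above, is counted here as well as in the matrix list.

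The 34 contractile and cytoskeletal genes split into 9 higher (5 with Cy5 alone) and 12 lower, beside 18.5% and 15.8% of all genes. FHL1, a LIM domain protein of muscle and stress fibres, fell by 4.29 on the log2 scale (SE 0.20, adjusted p = 1.58e-22), from 0.08 and 0.41 in the cells to between -4.56 and -3.73 in the embryos, and annexin ANXA5 differed by -3.60 ± 0.28 (adjusted p = 3.97e-15). PDLIM1, an adaptor of the actin cytoskeleton, rose by 2.52 ± 0.23 (adjusted p = 1.02e-12). Of 36 transporter, endocytosis and lysosome genes 9 were higher and 10 lower, beside the same shares of all genes. The folate receptor FOLR1 was at 0.06 and 0.46 in the cells and at 3.05 to 4.87 in the 14 IVF embryos measured, a rise of 3.94 ± 0.41 (adjusted p = 7.04e-11). The mitochondrial carrier SLC25A5 rose by 2.74 ± 0.33 (adjusted p = 2.64e-09) and the adaptor AP2B1 of clathrin-coated pits by 2.26 ± 0.23 (adjusted p = 5e-11). AP2B1 was higher in IVF than in AI embryos as well, by 0.94 ± 0.12 (adjusted p = 4.02e-08).

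Antioxidant genes went both ways, 8 higher (5 with Cy5 alone) and 9 lower of 32, beside 18.5% and 15.8% of all genes. Glutathione reductase (GSR) was at -1.40 and -1.63 in the cells and 1.31, 2.46 and 3.50 in the lowest, median and highest IVF embryo, a rise of 3.89 ± 0.43 (adjusted p = 2.5e-10), and the peroxiredoxin PRDX2 rose by 1.43 ± 0.22 (adjusted p = 5.42e-07). Catalase (CAT) differed by -2.27 ± 0.31 (adjusted p = 8.45e-08), GPX8, a peroxidase of the endoplasmic reticulum, by -3.13 ± 0.22 (adjusted p = 1.14e-16) and the superoxide dismutase SOD1 by -1.44 ± 0.34 (adjusted p = 0.000664). Haem oxygenase HMOX1 was not called against the cells (0.93 ± 0.67, adjusted p = 0.308) but was higher in IVF than in AI embryos by 1.89 ± 0.33 (adjusted p = 2.04e-05). TXN, thioredoxin, showed 0.03 ± 0.30 (adjusted p = 0.964). In the list of sterol and fatty acid synthesis, 1 of 12 genes rose, the citrate-cleaving enzyme ACLY (1.54 ± 0.24, adjusted p = 1.02e-06), and 1 fell, lanosterol synthase LSS (-1.28 ± 0.46, adjusted p = 0.0279). The share called in that list was below the 34.3% over all genes. FDPS (0.02 ± 0.50, adjusted p = 0.989) and MSMO1 (0.32 ± 0.69, adjusted p = 0.784) of the same pathway were not called.

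Of 22 genes of endoplasmic reticulum stress and the amino acid response, 1 was higher and 2 were lower in IVF embryos, and 3 and 7 in AI embryos. Over all genes 18.5% were higher and 15.8% lower in IVF embryos, and 20.4% and 16.6% in AI embryos, so that IVF embryos had fewer calls here than over all genes. The 7 of AI embryos were 4 without donor cell sample 8 and 3 without sample 9, and the 3 were 1 without sample 8, as deposited and with Cy5 alone. MANF, a secreted protein of the stressed endoplasmic reticulum, rose by 2.13 ± 0.27 (adjusted p = 6.51e-09), while the serine synthesis enzyme PSPH differed by -2.28 ± 0.69 (adjusted p = 0.00756) and DDIT4, an inhibitor of growth signalling, by -1.43 ± 0.39 (adjusted p = 0.00295). The transcription factor ATF4 was at 0.67 and 0.52 in the cells, -1.14 to 0.42 in IVF and -2.05 to -0.49 in AI embryos. It was not called in IVF embryos (-0.87 ± 0.35, adjusted p = 0.0526), fell in AI embryos (-1.94 ± 0.36, adjusted p = 1.68e-05) and was higher in IVF than in AI by 1.07 ± 0.17 (adjusted p = 6.37e-06). Of the 22 genes 7 were higher and 4 lower in IVF than in AI embryos (6 and 2 as deposited), beside 13.9% and 15.6% of all genes. Among 19 interferon and antigen presentation genes 3 were higher and 3 lower, which is near the shares over all genes (18.5% and 15.8%), and 1 was higher without donor cell sample 8 or as deposited. The class I gene BOLA, at 1.23 and 1.44 in the cells and -1.16 to 0.08 in the embryos, differed by -1.78 ± 0.38 (adjusted p = 0.000188), the loading factor TAPBP by -2.22 ± 0.35 (adjusted p = 1.45e-06) and IRF9 by -1.23 ± 0.26 (adjusted p = 0.00018), whereas the peptide transporter TAP1 rose by 1.38 ± 0.33 (adjusted p = 0.000773). The 13 apoptosis genes were called in no larger a share than the 34.3% over all genes. Of them 3 rose, led by the death receptor adaptor FADD (3.05 ± 0.54, adjusted p = 1.12e-05), and 1 fell. The 3 were 1 as deposited, with Cy5 alone and without sample 8. The lower gene was CFLAR, a caspase 8 inhibitor (-1.53 ± 0.29, adjusted p = 3.83e-05), whose difference was 0.41 and not called when 1 probe per gene was used.

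**Figure D2:**
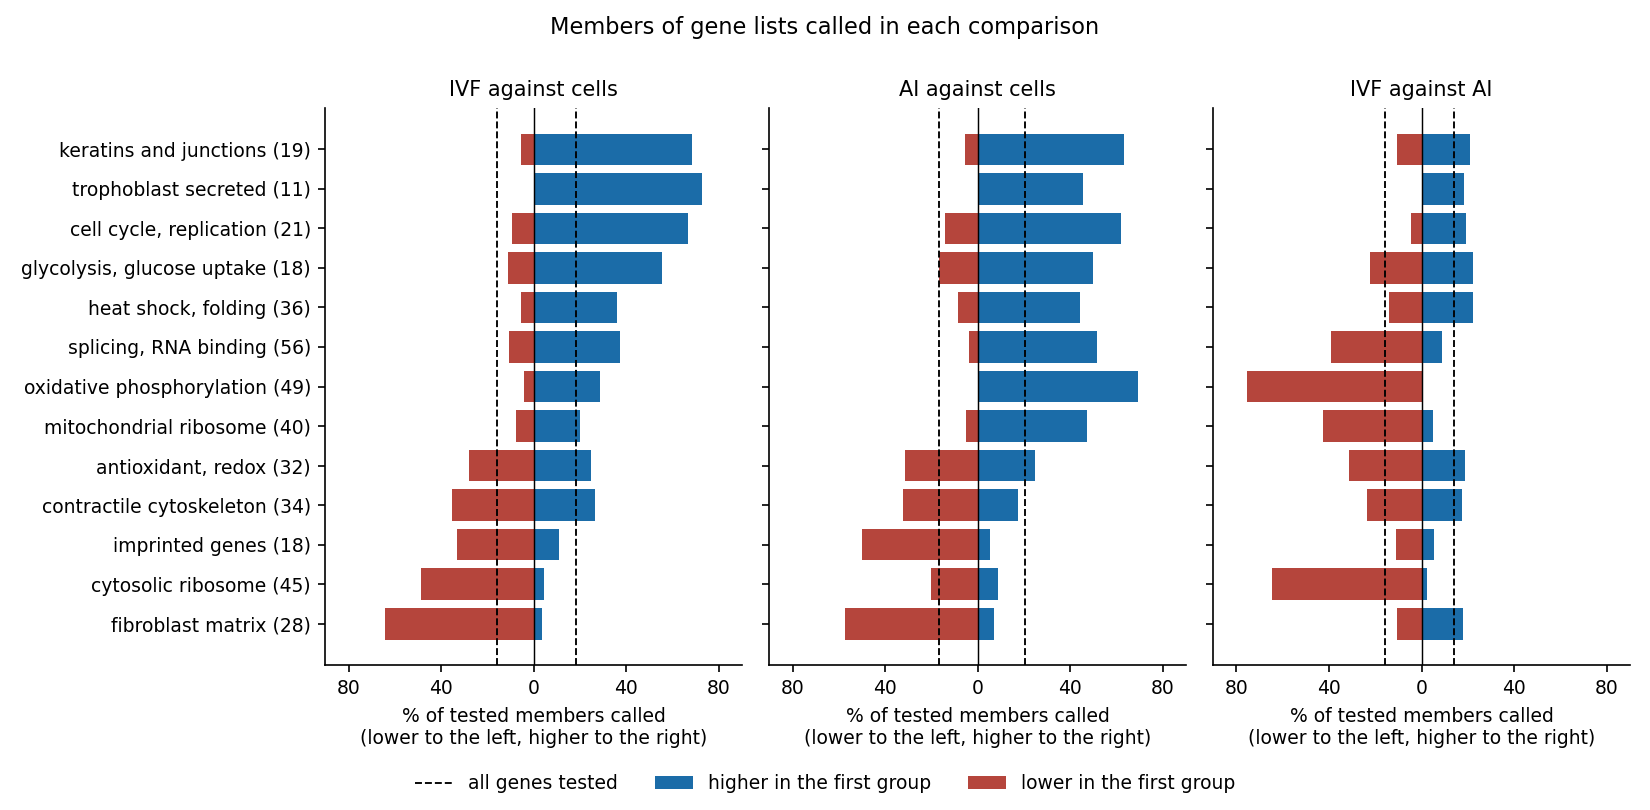
Percent of the tested genes of 13 lists (number tested in brackets) called higher (right, blue) or lower (left, red) in IVF embryos against the donor cells, AI embryos against the same 2 cell samples and IVF against AI embryos, with dashed lines at the percent over all genes. Of 49 respiratory chain and ATP synthase genes 14 were higher in IVF and 34 in AI embryos, and of 45 ribosomal protein genes 22 were lower in IVF and 9 in AI embryos.

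A difference of IVF embryos from the cells was counted as not found in AI embryos when IVF embryos were called against the cells, AI embryos were not, and IVF and AI embryos were called against each other in the same direction. This held for 176 genes (4%), of which 101 were higher (2.3%) and 75 lower (1.71%) in IVF embryos than in the cells. AI embryos that miss the threshold are not shown to equal the cells. In these 176 genes the median size of the difference from the cells was 0.96 in IVF and 0.35 in AI embryos, and that between IVF and AI was 0.63. The rule picks genes by these same differences, so that the sizes describe the set and are no test. In 15 of them the AI difference had the other sign. In 119 all measured IVF embryos lay beyond both cell samples. No gene was called in opposite directions against the cells by limma's test (0 also at an unadjusted p under 0.05), nor in any of the 11 alternatives. The direct contrast of IVF and AI embryos gave 1299 calls (29.5%), 611 higher (13.9%) and 688 lower (15.6%) in IVF, of which 145 were at least 2-fold. Of the 176 genes, 52 met the rule under each of the 3 other scalings, 20 with each dye orientation alone, 30 without either donor cell sample and 5 in all 11 alternatives.

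SGPL1, the lyase that degrades sphingosine 1-phosphate, was the largest higher gene of this kind. It had levels of 0.82 and 1.41 in the donor cells, of 2.69, 3.71 and 4.09 in the lowest, median and highest IVF embryo and of 0.98, 2.22 and 3.21 in AI embryos. All 15 IVF embryos lay above both cell samples, and 14 of them above the highest AI embryo. IVF embryos exceeded the cells by 2.53 ± 0.46 (adjusted p = 1.4e-05) and AI embryos by 1.56 ± 0.22 (adjusted p = 7.48e-07), while AI embryos differed from the cells by 0.97 ± 0.46 (adjusted p = 0.0926). The call against AI was kept in every alternative, and the rule was met in 10 of 11. ABCC2, an export pump of epithelial surfaces, was at 0.38 and 0.39 in the cells and ran from 1.78 to 3.57 in IVF embryos but from -0.78 to 4.04 in AI embryos. The 2 kinds of embryo overlapped, since AI embryos spread on both sides. ABCC2 was above the cells by 2.44 ± 0.66 (adjusted p = 0.0028) in IVF and by 1.41 ± 0.66 (adjusted p = 0.0913) in AI embryos, with 1.04 ± 0.32 (adjusted p = 0.0128) between them.

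Of the 19 keratin and junction genes 1 met the rule as higher, CTNND1, and none as lower, beside 2.3% and 1.71% of all genes. A single gene says little about the list. CTNND1, p120 catenin, which holds cadherins at the junction, was at 0.59 and 1.60 in the cells, 1.25 to 3.72 in IVF and 1.31 to 3.04 in AI embryos. The ranges overlapped, with 14 of 15 IVF embryos above both cell samples, a difference of 1.92 ± 0.44 (adjusted p = 0.000473) from the cells and 0.86 ± 0.22 (adjusted p = 0.00208) from AI. AI embryos missed the threshold narrowly (1.06 ± 0.44, adjusted p = 0.0538). TSPAN12, a tetraspanin of the cell surface, was at -2.83 and -2.52 in the cells and -1.79 to 1.00 in IVF embryos, with 2.40 ± 0.76 (adjusted p = 0.0105) against the cells and 1.56 ± 0.37 (adjusted p = 0.00122) against AI. ARHGEF5 differed by 2.09 ± 0.55 (adjusted p = 0.00209) and 1.26 ± 0.27 (adjusted p = 0.000346) in the same order. The protease urokinase (PLAU), which activates plasminogen, was at -1.24 and -1.33 in the cells, -0.63 to 1.39 in IVF and -2.45 to -0.47 in AI embryos. Its difference from the cells was 1.80 ± 0.59 (adjusted p = 0.0138) in IVF and 0.15 ± 0.59 (adjusted p = 0.884) in AI embryos, with 1.65 ± 0.29 (adjusted p = 1.97e-05) between them. TSPAN12 and PLAU did not meet the rule without sample 8 or without sample 9, ARHGEF5 did not without sample 9 and CTNND1 did not without sample 8.

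Of the 32 antioxidant genes SELENOP and TXNRD1 met the rule as higher and PRDX6 as lower, beside 2.3% and 1.71% of all genes. SELENOP, a secreted carrier of selenium, was at 0.31 and 0.41 in the donor cells, at 1.79, 2.11 and 2.81 in the lowest, median and highest IVF embryo and at -0.14 to 2.38 in AI embryos. It was above the cells by 1.82 ± 0.38 (adjusted p = 0.000167) in IVF and 0.71 ± 0.39 (adjusted p = 0.157) in AI embryos, and the embryos differed by 1.11 ± 0.19 (adjusted p = 1.36e-05). Thioredoxin reductase (TXNRD1) was at 1.39 and 1.42 in the cells, 1.81 to 3.02 in IVF and 0.30 to 1.64 in AI embryos, so that the 15 IVF embryos lay above all other samples of this comparison. Its differences were 0.98 ± 0.30 (adjusted p = 0.00809) from the cells and 1.28 ± 0.15 (adjusted p = 5.89e-09) from AI embryos, with the call against the cells lost as deposited, with the sample in Cy5 alone and without either donor cell sample.

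The other 5 of the 12 largest higher genes of this kind were ABCD3, a transporter of the peroxisome membrane (1.87 ± 0.68 from the cells, 1.06 ± 0.34 from AI), GMPPB, which makes GDP-mannose for sugar chains (1.76 ± 0.44 and 0.77 ± 0.22), ATF7IP, a partner of a histone methyltransferase (1.68 ± 0.35 and 1.00 ± 0.17), RNF185, a ubiquitin ligase (1.67 ± 0.53 and 0.77 ± 0.26), and EIF5, a translation initiation factor (1.52 ± 0.41 and 0.97 ± 0.20). In all 5 every IVF embryo lay above both cell samples. ATF7IP was uneven in the cells, at 0.31 and -0.93, as was GMPPB, at -0.79 and 0.95. The rule was met in 7 of 11 alternatives by ABCD3, in 8 by ATF7IP and RNF185 and in 9 by GMPPB and EIF5. Smaller members named from the lists were the placental lactogen relative CSH2 (0.88 ± 0.29 from the cells, 0.54 ± 0.14 from AI) and TKDP4 (1.04 ± 0.37 and 0.94 ± 0.18), a trophoblast protease inhibitor. PFKFB3, which sets the level of a glycolysis activator (0.96 ± 0.31 and 0.99 ± 0.15), the checkpoint protein BUB3 (0.85 ± 0.21 and 0.50 ± 0.10), the spliceosome protein PRPF8 (1.01 ± 0.24 and 0.70 ± 0.12) and the galectin LGALS1 (1.28 ± 0.37 and 0.46 ± 0.18) completed them. With 1 probe per gene CSH2 was at -0.03 and PFKFB3 at -0.0041 against the cells. Of the 36 heat shock and folding genes DNAJB1 (0.91 ± 0.30 from the cells, 0.64 ± 0.15 from AI) and DNAJB11 (0.93 ± 0.32 and 0.67 ± 0.16) met the rule. Both were higher, as 2.3% of all genes were by the rule. They met it in 6 and 7 of 11 alternatives and were named after their values were seen.

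**Figure D3:**
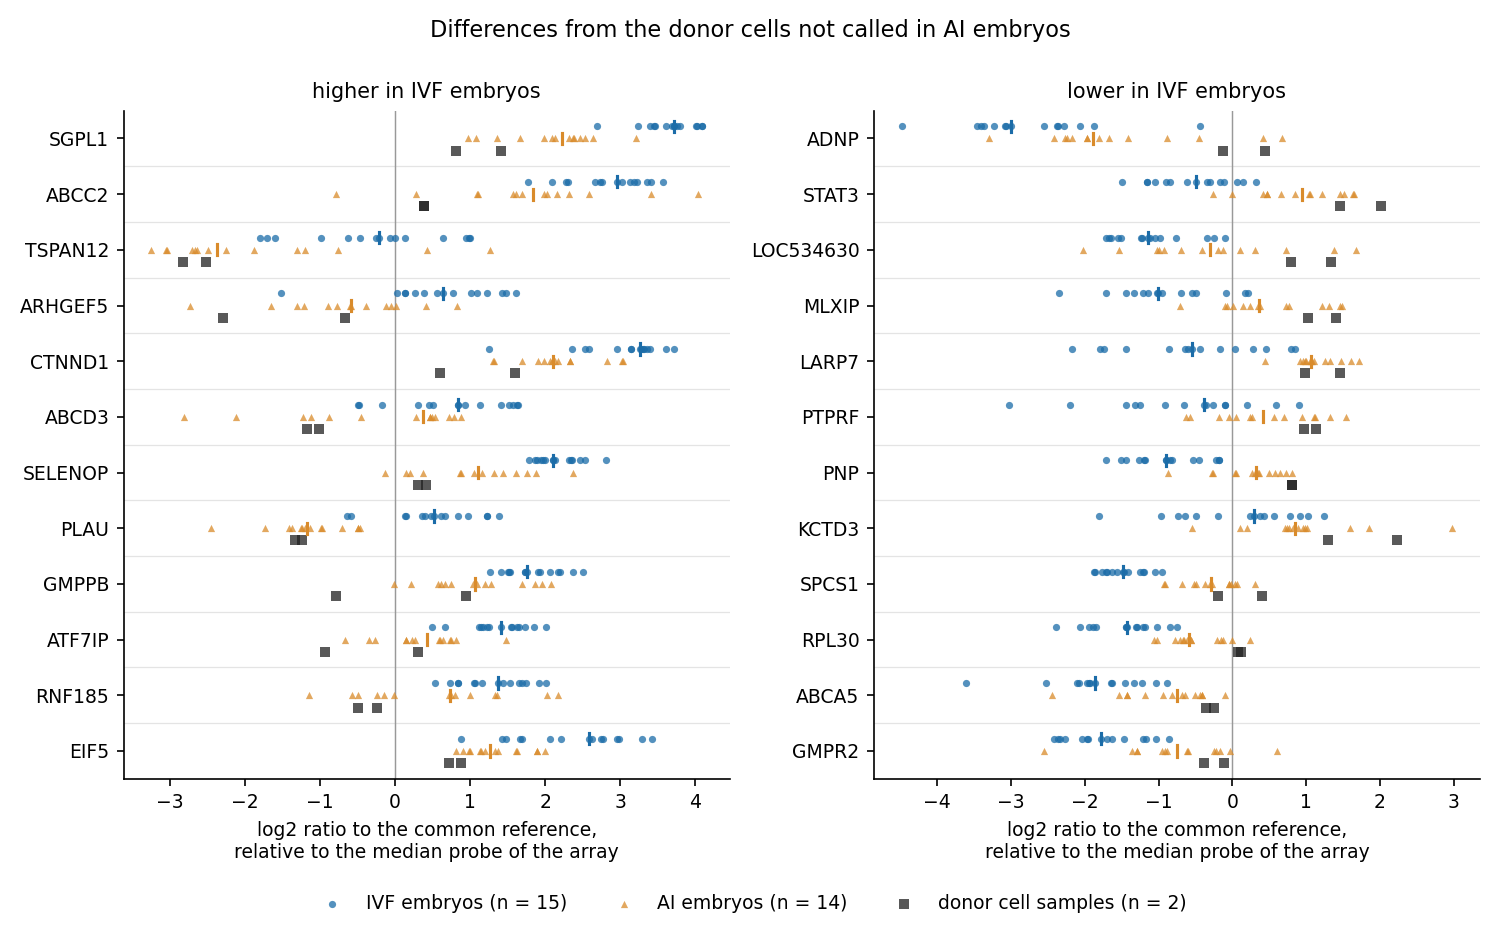
Levels (log2 ratio of sample over reference, arrays centred) of genes that differed from the donor cells in IVF and not, by the test, in AI embryos, 1 point per sample (IVF circles, AI triangles, donor cells squares) with ticks at the embryo medians. SGPL1 runs from 2.69 to 4.09 in IVF and from 0.98 to 3.21 in AI embryos, and SPCS1 from -1.88 to -0.95 in IVF and from -0.93 to 0.30 in AI embryos, with no overlap for SPCS1.

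Of the lower genes of this kind ADNP had the largest difference from the cells. ADNP, a chromatin-binding homeobox protein, was at -0.12 and 0.44 in the donor cells, at -4.48, -3.00 and -0.44 in the lowest, median and highest IVF embryo and at -3.29 to 0.68 in AI embryos. All 15 IVF embryos lay below both cell samples, as did 12 of the AI embryos. The difference from the cells was -2.89 ± 0.71 (adjusted p = 0.00107) in IVF and -1.69 ± 0.71 (adjusted p = 0.0572) in AI embryos, with -1.20 ± 0.35 (adjusted p = 0.00739) between them. STAT3, the signal transducer of the LIF and interleukin 6 pathway, was at 2.01 and 1.45 in the cells, at -1.50, -0.49 and 0.32 in IVF embryos and at -0.27, 0.94 and 1.65 in AI embryos. IVF embryos were below the cells by -2.27 ± 0.41 (adjusted p = 1.71e-05) and below AI embryos by -1.41 ± 0.20 (adjusted p = 8.12e-07), and AI embryos differed from the cells by -0.86 ± 0.42 (adjusted p = 0.1). Quantile normalisation, a common spread of the arrays and the Cy5 orientation alone each ended the rule for STAT3, though not its calls against the cells or AI embryos. MLXIP, a glucose-sensing transcription factor, differed by -2.12 ± 0.53 (adjusted p = 0.0013) from the cells and -1.42 ± 0.26 (adjusted p = 4.17e-05) from AI embryos.

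LARP7, which binds the 7SK RNA that holds back transcription elongation, was at 1.45 and 0.98 in the cells, -2.18 to 0.84 in IVF and 0.44 to 1.72 in AI embryos. AI embryos lay around the cell samples (-0.08 ± 0.46, adjusted p = 0.928), whereas IVF embryos lay below both cell samples in all 15 cases (-1.75 ± 0.45, adjusted p = 0.00191). The embryos differed by -1.67 ± 0.22 (adjusted p = 1.91e-07). SMARCA2, an ATPase of a chromatin remodelling complex, was lower in IVF embryos by -1.04 ± 0.29 (adjusted p = 0.00459) against the cells and -0.79 ± 0.15 (adjusted p = 3.96e-05) against AI. PABPN1, the nuclear poly(A)-binding protein, stood at -0.06 and 0.44 in the cells, -2.23 to 0.07 in IVF and -0.12 to 1.30 in AI embryos. The signs of its differences from the cells were opposite, -1.25 ± 0.37 (adjusted p = 0.00695) in IVF and 0.39 ± 0.37 (adjusted p = 0.467) in AI embryos, and the embryos differed by -1.64 ± 0.18 (adjusted p = 3.84e-09).

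SPCS1, a subunit of the signal peptidase that trims secreted proteins, was at -0.19 and 0.41 in the cells, -1.88 to -0.95 in IVF and -0.93 to 0.30 in AI embryos. Each IVF embryo lay below the lowest AI embryo and below both cell samples. The differences were -1.58 ± 0.26 (adjusted p = 2.96e-06) from the cells and -1.18 ± 0.13 (adjusted p = 2.18e-09) from AI embryos, and AI embryos differed from the cells by -0.41 ± 0.26 (adjusted p = 0.243). The rule failed for SPCS1 in 1 of 11 alternatives, the Cy5 orientation alone. PTPRF, a receptor phosphatase of epithelia, ranged from -3.03 in IVF embryo 11 to 0.90 in IVF embryo 1, against 1.13 and 0.97 in the cells (difference -1.74 ± 0.55, adjusted p = 0.0119). Others of the 12 largest were LOC534630 (-2.16 ± 0.61 from the cells, -0.82 ± 0.30 from AI), KCTD3 (-1.69 ± 0.59 and -0.87 ± 0.29), the lipid transporter ABCA5 (-1.51 ± 0.52 and -0.89 ± 0.26) and GMPR2, which returns guanosine to inosine nucleotides (-1.50 ± 0.45 and -0.99 ± 0.22). PTPRF differed from AI by -1.15 ± 0.27. Of the list members, fibronectin FN1 was at 0.27 and 0.50 in the cells, -1.48 to -0.08 in IVF and -0.64 to 0.58 in AI embryos, with -0.99 ± 0.30 (adjusted p = 0.00899) from the cells and -0.80 ± 0.15 (adjusted p = 5.09e-05) from AI. The mitochondrial carrier SLC25A6 (-1.13 ± 0.28 and -0.55 ± 0.14) and the proteasome subunit PSMD13 (-0.74 ± 0.16 and -0.47 ± 0.08) also met the rule.

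The 5 genes that met the rule in all 11 alternatives were PNP, ACTN1, ABCC2, RPL37 and FHL3. RPL37 and FHL3 were chosen for this after their values were seen. PNP, the phosphorylase of purine salvage, was at 0.81 in both donor cell samples, at -1.71, -0.90 and -0.18 in the lowest, median and highest IVF embryo and at -0.87, 0.32 and 0.81 in AI embryos. All 15 IVF embryos lay below both cell samples and below the mean of the AI embryos. The difference was -1.70 ± 0.32 (adjusted p = 3.5e-05) from the cells and -1.12 ± 0.16 (adjusted p = 6.32e-07) from AI embryos, which themselves differed from the cells by -0.58 ± 0.32 (adjusted p = 0.169). ACTN1, alpha-actinin 1, which bundles actin, was at 0.53 and 0.94 in the cells, -1.31 to -0.11 in IVF and -0.24 to 0.92 in AI embryos, with -1.40 ± 0.28 (adjusted p = 9.76e-05) and -0.96 ± 0.14 (adjusted p = 9.11e-07). FHL3, a LIM domain protein, differed by -0.86 ± 0.22 from the cells and -0.66 ± 0.11 from AI embryos, and the ribosomal protein RPL37 by -1.08 ± 0.26 and -0.90 ± 0.13.

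The cytosolic ribosome held the largest group of such genes among the lists. Of 45 ribosomal protein genes tested, 22 were lower in IVF embryos than in the cells and 2 higher (median -0.61), against 9 lower and 4 higher in AI embryos (median -0.11). Directly between the embryos 29 were lower and 1 higher in IVF (median -0.36). Over all genes 15.8% were lower than the cells in IVF and 16.6% in AI embryos, and 15.6% were lower in IVF than in AI. Of the 45, 13 met the rule, all lower, beside 1.71% of all genes. They were RPL15, RPL22, RPL23, RPL27, RPL30, RPL34, RPL35A, RPL37, RPL38, RPLP1, RPS20, RPS25 and RPS3A. Of 29 genes matched by name to the large subunit 15 were lower and 1, RPL7L1, higher in IVF embryos, and of 16 of the small subunit 7 were lower and 1, RPS3, higher. RPL30 was at 0.12 and 0.08 in the cells, -2.39, -1.43 and -0.75 in the lowest, median and highest IVF embryo and -1.06 to 0.24 in AI embryos. It differed by -1.57 ± 0.28 (adjusted p = 1.13e-05) from the cells and -0.98 ± 0.14 (adjusted p = 4.67e-07) from AI. RPL35A was at -0.07 and -0.08 in the cells, -1.84 to -0.45 in IVF and -0.20 to 0.97 in AI embryos, so that IVF embryos lay below all AI embryos and 11 of the 14 AI embryos lay above both cell samples. The differences were -1.07 ± 0.28 (adjusted p = 0.00215) for IVF, 0.26 ± 0.28 (adjusted p = 0.529) for AI and -1.33 ± 0.14 (adjusted p = 7.09e-10) between them. RPL23 showed the same arrangement, with IVF embryos at -0.94 to 0.16 and AI embryos at 0.28 to 1.11, a difference of -0.87 ± 0.12 (adjusted p = 1.46e-07).

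Other ribosomal genes were lower in both kinds of embryo. RPL35 was at -0.87 and -0.49 in the cells, -2.43 to -2.01 in IVF and -2.34 to -1.99 in AI embryos, with -1.57 ± 0.14 (adjusted p = 9.22e-13) for IVF and -1.48 ± 0.14 (adjusted p = 6.09e-12) for AI. RPS24 was lower by -1.16 ± 0.21 (adjusted p = 1.31e-05) in IVF and -0.67 ± 0.21 (adjusted p = 0.00891) in AI embryos. RPS9 stood apart with -4.29 ± 0.31 (adjusted p = 4.43e-16) in IVF and -4.86 ± 0.31 (adjusted p = 5.32e-18) in AI embryos, from 1.55 and 1.77 in the cells. RPS3 and RPL7L1, the higher genes, were named after their values were seen, and RPL7L1 is counted in the list by its name although it is a relative and no subunit. Averaged over the 45 genes, levels ran from -1.13 to -0.62 in IVF embryos, from -0.70 to -0.02 in AI embryos and were -0.24 and -0.25 in the donor cells. All 15 IVF embryos lay below both cell samples, and 13 below the lowest AI embryo. The 2 dye orientations gave 31 (Cy5) and 7 (Cy3) lower genes against the cells and 32 and 14 against AI embryos, and as deposited the counts were 19 and 16. With Cy3 alone 5 genes were higher than the cells in IVF embryos. The median difference of IVF embryos from the cells was -1.19 with Cy5 alone and -0.12 with Cy3 alone for the large subunit. For the small subunit it was -0.93 and -0.08, so that the fall against the cells was seen mainly with Cy5. Without donor cell sample 9 the large subunit had 9 lower genes against the cells. The 9 lower genes of AI embryos were 4 without sample 8, 5 without sample 9 and 2 with Cy3 alone, and their 4 higher genes were 2 without either sample and as deposited.

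Respiratory chain and ATP synthase genes presented the opposite arrangement, in which AI embryos were further from the cells than IVF embryos. Of 49 genes, 14 were higher and 2 lower than in the cells in IVF embryos (median 0.44), and 34 were higher and none lower in AI embryos (median 0.92). Between the embryos 37 were lower and none was higher in IVF (median -0.53). Over all genes 18.5% were higher than the cells in IVF and 20.4% in AI embryos, and 15.6% were lower in IVF than in AI. By limma's unadjusted p under 0.05, 2 would be lower in AI embryos than in the cells and 1 higher in IVF than in AI embryos. None of the 49 met the rule above. Of these genes 20 were instead higher in AI embryos than in the cells, not called in IVF embryos and lower in IVF than in AI, which 3.96% of all genes were. The mirror case, lower in AI embryos than in the cells, held for 1.91% of all genes and for none of the 49, and both cases together for 5.87% of all genes. Genes were matched to a complex by the start of their names alone, so that relatives such as NDUFA4L2 and COX7A2L are counted and a gene may be misplaced. By complex, the genes higher than the cells in IVF and AI embryos numbered 5 and 13 of 23 for complex I, 3 and 4 of 5 for complex III, 2 and 5 of 7 for complex IV and 3 and 11 of 12 for ATP synthase. As deposited the complex I counts were 1 and 5 and the ATP synthase counts 1 and 6. Without donor cell sample 8 the IVF counts were 3 for complex I and 1 for ATP synthase, and the AI count was 2 for complex IV. Without sample 9 the IVF count was 3 for complex I, and the AI counts were 8 for complex I, 3 for complex IV and 6 for ATP synthase. Of the 12 ATP synthase genes 10 were lower in IVF than in AI embryos. COX7A2, a subunit of cytochrome c oxidase, had levels of -1.75 and -1.88 in the cells, -0.68, -0.03 and 0.34 in the lowest, median and highest IVF embryo and 0.90, 1.23 and 1.54 in AI embryos, so that none of the 3 groups overlapped. The differences from the cells were 1.67 ± 0.22 (adjusted p = 2.11e-08) and 3.01 ± 0.22 (adjusted p = 6.26e-16), and IVF embryos were below AI embryos by -1.33 ± 0.11 (adjusted p = 9.37e-13). ATP5PB, of the ATP synthase stalk, showed 0.87 ± 0.25 (adjusted p = 0.00544) and 1.77 ± 0.25 (adjusted p = 1.27e-07).

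The catalytic beta subunit of ATP synthase (ATP5F1B) did not follow. It was at -0.32 and -0.55 in the cells, 1.05 to 1.74 in IVF and 0.81 to 1.51 in AI embryos, higher than the cells by 1.71 ± 0.20 (adjusted p = 9.22e-10) in IVF and 1.63 ± 0.20 (adjusted p = 3.53e-09) in AI embryos, which overlapped (0.09 ± 0.10, adjusted p = 0.533). The core proteins of complex III, UQCRC1 (1.15 ± 0.20, adjusted p = 5.98e-06) and UQCRC2 (1.22 ± 0.21, adjusted p = 6.91e-06), were higher than the cells in IVF embryos and lower than in AI embryos by -0.36 ± 0.10 and -0.50 ± 0.10. Over the 49 genes the mean level was -0.43, -0.15 and 0.00 in the lowest, median and highest IVF embryo, 0.16, 0.33 and 0.60 in AI embryos and -0.55 and -0.58 in the donor cells. Every IVF embryo lay between the donor cells and the lowest AI embryo. The count of 14 higher genes in IVF embryos was 5 as deposited, 5 with the sample in Cy5 alone, 7 without donor cell sample 8 and 9 without sample 9. The 34 of AI embryos were 18 as deposited, 20 with Cy5 alone and 22 without sample 9. The 37 lower than in AI embryos were 24 as deposited, 33 with the sample in Cy5 alone and 30 with it in Cy3 alone, where 3 were higher.

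**Figure D4:**
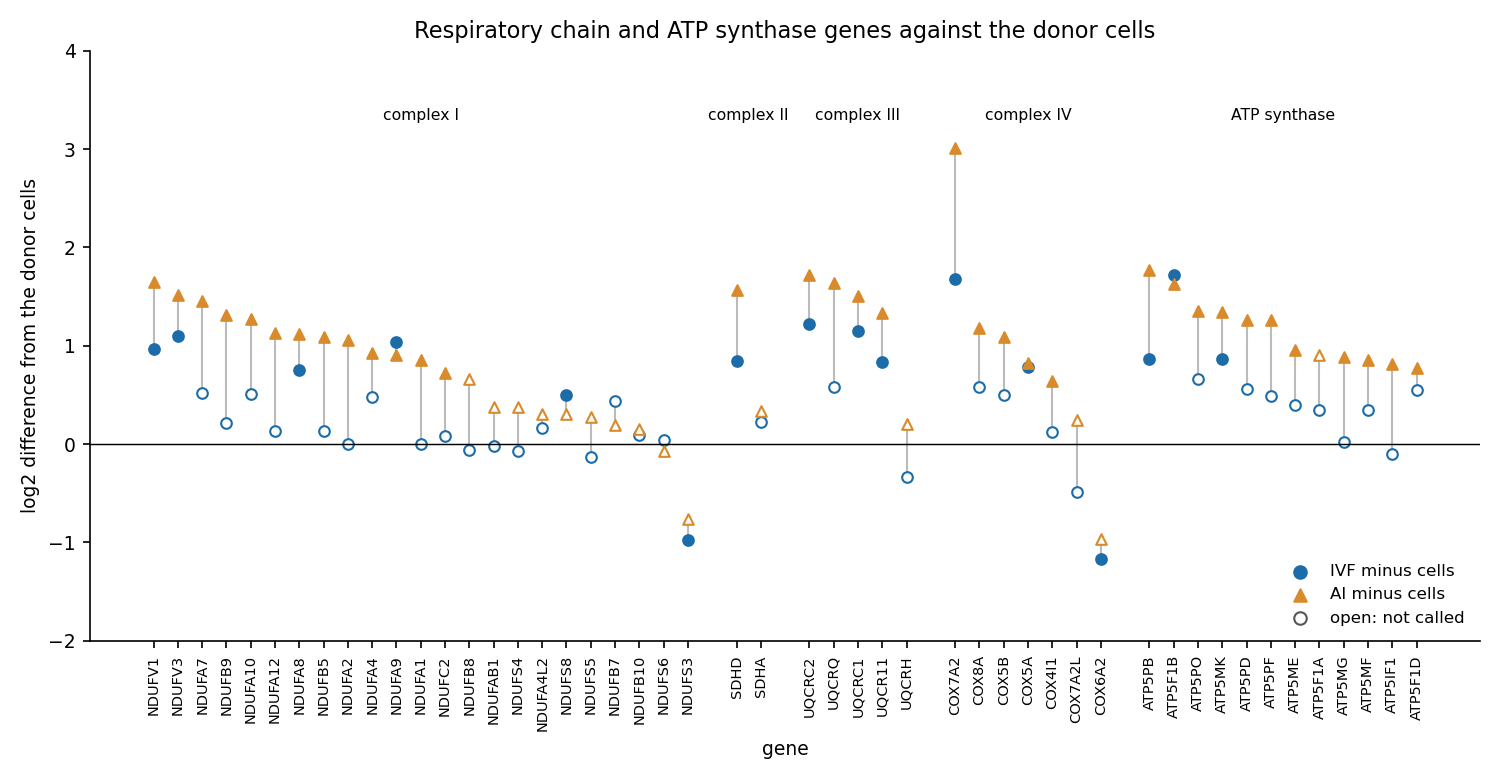
Difference from the donor cells (log2) of each respiratory chain and ATP synthase gene in IVF (circles) and AI embryos (triangles), filled where called and open where not. The medians over the 49 genes are 0.44 in IVF and 0.92 in AI embryos, and COX7A2 has the values 1.67 and 3.01.

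Mitochondrial ribosome genes and histones were lower in IVF than in AI embryos in part. Of 40 mitochondrial ribosome genes 8 were higher and 3 lower than the cells in IVF embryos, 19 and 2 in AI embryos, and 17 were lower and 2 higher in IVF than in AI. The share higher in IVF embryos was near the 18.5% over all genes. Its count was 5 as deposited, 5 with Cy5 alone and 14 with Cy3 alone, and the 3 lower were 1 without donor cell sample 9. The 19 of AI embryos were 6 as deposited, 8 with Cy5 alone and 11 without sample 9, and the 17 lower than in AI were 8 as deposited. MRPL48 was at -1.96 and -3.83 in the cells and -0.81 to 1.08 in IVF embryos (3.10 ± 0.36, adjusted p = 1.22e-09), MRPL55 rose by 1.51 ± 0.19 (adjusted p = 9.49e-09) and MRPL45 by 1.28 ± 0.21 (adjusted p = 4.19e-06), while MRPS18A fell by 1.55 on the log2 scale (SE 0.28, adjusted p = 1.54e-05). MRPL45 was higher in IVF than in AI embryos, by 0.39 ± 0.11 (adjusted p = 0.00418). Of 10 histone genes 2 were higher and 3 lower than the cells in IVF embryos, beside 18.5% and 15.8% of all genes. In AI embryos 5 were higher and 1 was lower than the cells, and the 5 were 1 as deposited and with Cy5 alone. Directly between the embryos 5 were lower in IVF, or 3 as deposited, beside 15.6% of all genes. H2AZ1, a variant placed at promoters, was at -1.19 and -1.60 in the cells, -1.29 to -0.31 in IVF and -0.01 to 0.71 in AI embryos, with 0.79 ± 0.19 (adjusted p = 0.000966) and 1.82 ± 0.19 (adjusted p = 6.2e-11) and -1.04 ± 0.09 (adjusted p = 2.19e-11) between the embryos. H2BC21 differed from the cells by -3.08 ± 0.76 (adjusted p = 0.00113), H1-2 by -1.94 ± 0.55 (adjusted p = 0.00414) and MACROH2A1 by -0.97 ± 0.33 (adjusted p = 0.019). H1-2 differed widely between the donor cell samples, at -0.04 and 2.39, and without sample 9 none of the histone genes was called between IVF embryos and the cells, while 2 were higher in AI embryos. Proteasome genes were mostly not called between IVF embryos and the cells, with 2 of 22 higher (5 after quantile normalisation, 8 with Cy3 alone) and 1 lower. In AI embryos 8 were higher and 1 was lower than the cells, but none was higher as deposited and 1 with Cy5 alone. Directly between the embryos 9 were lower (5 as deposited) and 2 higher in IVF, beside 15.6% and 13.9% of all genes. Of the 22, 5 were higher in AI embryos than in the cells, not called in IVF embryos and lower in IVF than in AI, beside 3.96% of all genes.

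**Figure D5:**
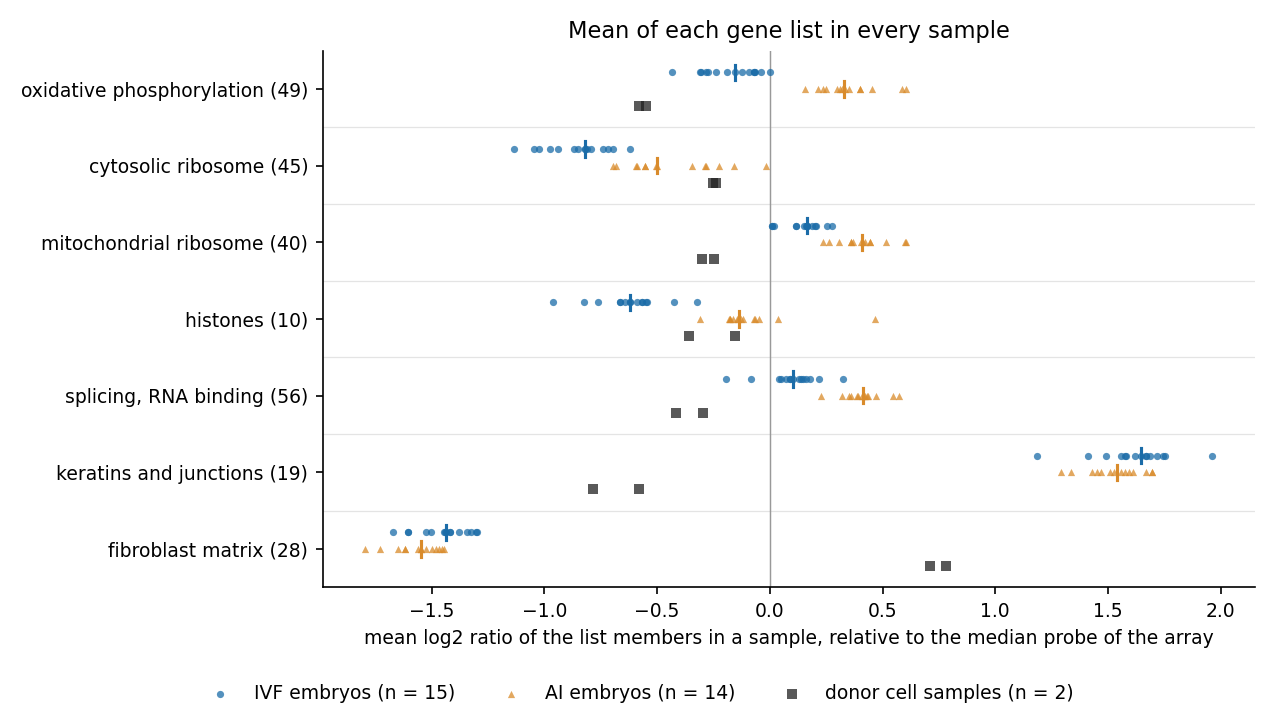
Mean level (log2 ratio of sample over reference) over the tested genes of each list in every IVF embryo, AI embryo and donor cell sample, with ticks at the embryo medians. Respiratory chain genes average -0.43 to 0.00 in IVF, 0.16 to 0.60 in AI and -0.55 and -0.58 in donor cells, and ribosomal protein genes -1.13 to -0.62, -0.70 to -0.02, and -0.24 and -0.25.

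Of 26 tested markers of other cell types that the samples could hold, 6 were called between IVF embryos and the cells, where 34.3% of all genes were. Of 12 leukocyte markers 2 were higher in IVF embryos than in the cells, CD48 (3.96 ± 0.31, adjusted p = 1.08e-14) and CORO1A (1.21 ± 0.26, adjusted p = 0.000225), and none was lower. CD48 was at -1.94 and -2.52 in the cells, 1.12 to 2.40 in IVF and 2.23 to 3.64 in AI embryos. The mean over the leukocyte list ran from -0.59 to -0.10 in IVF embryos and was -0.69 and -0.72 in the cells. Of 8 endothelial markers 1, ERG, was lower (-3.52 ± 0.24, adjusted p = 1.42e-16). Of 5 cumulus and granulosa markers PTGS2 was higher and CD44 (-2.53 ± 0.28, adjusted p = 2.46e-10) and TNFAIP6 (-2.68 ± 0.39, adjusted p = 2.29e-07) were lower, and the mean of 0.54 to 0.87 in IVF embryos lay between the 0.48 and 0.96 of the cells. CD44 is also a fibroblast gene and PTGS2 one of the largest rises above. The oocyte list had 1 tested gene, ZP3, which was not called (0.35 ± 0.47, adjusted p = 0.631). The part of other cells in the results was not tested.

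The IVF embryos varied among themselves by a median SD of 0.45 over all genes and 0.40 over those called against the cells, next to 0.44 over all genes in AI embryos. IVF embryos 11 and 1 resembled the others least, with median correlations of 0.70 and 0.72, and IVF embryo 4 most, with 0.84. Of the 176 named genes the lowest of the 15 values fell to embryo 7 in 29, to embryo 11 in 28 and to embryo 1 in 27, and the highest to embryo 11 in 29 and to embryos 1 and 18 in 20 each. The widest genes among those called, chosen for their SD, were OCIAD2 (SD 1.23), CPT2 (1.22), which frees fatty acids from carnitine inside mitochondria, and PAG12 (1.15), whose low value in embryo 7 is given above. All 15 embryos shared the mean of keratin and junction genes far above the donor cells, at 1.19 to 1.96 against -0.78 and -0.58.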

How the data were processed

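Single bovine blastocysts and donor cells were measured on 92 arrays of a 2-colour cDNA microarray. For each spot the authors deposited a log2 ratio between its dye channels. The scanner software, background correction and direction of the ratio are not given in the sources used here. Array medians of the deposited log2 ratios ran from -2.14 to 0.86 in IVF embryos, so that they were not centred by the authors.

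The fill value of 16.61 (2657 cells) was set to missing, the sign was turned on arrays that carried the sample in Cy3, and each array was centred on its median. Each probe's duplicate spots gave 1 mean, and each sample's 2 arrays gave 1 mean. A probe was tested with values in at least 50% of each kind of embryo and in both donor cell samples (7992 of 8208 probes). Probes with 1 symbol in the platform annotation (5598, while 95 had several and 2515 none) were averaged into 4398 genes. The number of arrays limits the precision.

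A linear model of group means over all 46 samples was fitted with limma 3.58.1 (R 4.3.3), with lmFit, eBayes and Benjamini-Hochberg adjustment over all genes at 0.05, and tested on simulated data. Named genes were the 12 largest rises and falls against the cells in which all embryos lay on one side, the 12 largest each way that met the rule on AI embryos, up to 4 members of each list by p and up to 2 by p against AI, and genes chosen by name. Single exceptions of a list, namely FBLN2, RPS3 and RPL7L1, and the genes RPL37, FHL3, OCIAD2, CPT2, DNAJB1 and DNAJB11 were named after their values were seen. The members and the 28 gene lists were chosen with earlier results of these data known. Alternatives changed the centring, scaling, dye orientation, filter, probe choice, samples in the fit, variance moderation and donor cell samples. The embryo numbers shared by AI and IVF embryos were examined as a block.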

Additional observations from a re-analysis of the deposited data

Results flagged for a closer look

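Genes and lists whose difference from the donor cells differed between IVF and AI embryos, by the contrast of the 2 kinds of embryo in the limma model, are listed here with that contrast (IVF minus AI, log2). Among genes higher than the cells in IVF and not called in AI embryos, it was 1.56 for SGPL1 and for TSPAN12, 1.65 for PLAU, 1.26 for ARHGEF5, 1.11 for SELENOP, 1.06 for ABCD3, 1.04 for ABCC2, 1.00 for ATF7IP, 0.97 for EIF5, 0.86 for CTNND1 and 0.77 for GMPPB and for RNF185. Among the lower genes, it was -1.67 for LARP7, -1.42 for MLXIP, -1.41 for STAT3, -1.20 for ADNP, -1.18 for SPCS1, -1.15 for PTPRF, -1.12 for PNP, -0.99 for GMPR2, -0.98 for RPL30, -0.89 for ABCA5, -0.87 for KCTD3 and -0.82 for LOC534630. By list, 29 of 45 ribosomal protein genes, 37 of 49 respiratory chain and ATP synthase genes and 17 of 40 mitochondrial ribosome genes were lower in IVF than in AI embryos, while 15.6% of all genes were. No cause was tested for any of these.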

How the results depend on the processing

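The 1508 calls of IVF embryos against the cells became 964 to 983 when either donor cell sample was left out, and 1019 of them were kept as deposited, 924 without sample 8 and 914 without sample 9. The 1299 calls between IVF and AI embryos became 698 as deposited. The 176 genes not found in AI embryos became 76 as deposited and 110 to 111 when either donor cell sample was left out. The cause of these changes was not tested. A fit without a donor cell sample also had fewer of them, which cannot be told apart from the values of that sample. The other alternatives left these 3 counts within 1.5 times. With the embryo number as a replicate block, over the 7 numbers that AI and IVF embryos share, 451 genes were called, against 690 in the same embryos without the block (1282 at an unadjusted p under 0.05 with it). Same-numbered embryos did not deviate together (r from -0.06 to 0.09), so that the numbers were not taken to pair them. IVF embryos and donor cells share 1 number, which allows no such fit. Named genes that turned sign were CFLAR (0.41), CSH2 (-0.031), DNAJA4 (0.47) and PFKFB3 (-0.0041) against the cells with 1 probe per gene, and TFAP2A (0.092) against AI embryos with the sample in Cy3 alone. Against the cells, 38 of the 176 named genes lost their call without donor cell sample 8, 34 without sample 9, 20 with Cy5 alone, 16 with Cy3 alone and 16 as deposited. No intensities were used to judge weak spots.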
